A study of Mus musculus with 12 samples.

Results

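Glutathione transferases and genes described as targets or regulators of the transcription factor NRF2 were followed in mouse embryonic stem cells of the D3 line. The members were all genes with a glutathione transferase symbol on the array, of the cytosolic, mitochondrial and microsomal families, together with 22 listed NRF2 genes. They came to 43 of the 18193 genes on the array. Of these, 23 were transferases and 20 were other NRF2 genes, and Prdx1 and G6pdx had no probe set of their own and gave no values.

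RNA abundance was measured on 12 Affymetrix arrays in 4 groups of 3. The groups were NP day8 and BPA day8, cells differentiated for 8 days with the agent labelled NP or the agent labelled BPA, control day8, differentiated for the same time with no agent, and control day0. In all groups the cells came from culture on mouse embryonic fibroblasts treated with MMC, and differentiation took place in embryoid bodies, aggregates of stem cells. Doses and the full names of the agents are not in the labels. Nor do the labels tell whether the replicates of a group were grown apart. A p-value of the model here thus reflects the spread among these 3 samples per group, pooled over all 4 groups, which may be technical.

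NRF2, encoded by Nfe2l2, binds antioxidant response elements beside small MAF proteins. In unstressed cells KEAP1 holds NRF2 in the cytoplasm and hands it to a ubiquitin ligase built on CUL3, and electrophiles or oxidants that modify KEAP1 let NRF2 accumulate. Its targets make glutathione, reduce quinones, carbonyls and thioredoxin, supply NADPH and export conjugates. Glutathione transferases join glutathione to electrophiles. Their classes are named after Greek letters, and the mu class genes form a cluster. RNA abundance of Nfe2l2 does not measure NRF2 protein.

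The values are log2 signals per probe set, and all changes are differences of log2 signals, the first group minus the second, with the standard error of the model and 3 arrays per group. The background level was a log2 signal of 3.41, and on each array 58.3% to 62.3% of probe sets exceeded it. A change was called by limma where its Benjamini-Hochberg adjusted p over all 13067 genes tested was under 0.05. Levels of different genes are not set against each other, since probe sets differ in their response.

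The labelled cells were checked against marker lists, given as summed signals. All 15 markers of pluripotent cells were above background in every group, at 18780 to 24997 on NP day8 arrays, 23173 to 24046 on BPA day8 arrays, 3981 to 7774 on control day8 arrays and 33070 to 33217 on control day0 arrays. The 15 measured of 16 markers of visceral and primitive endoderm summed to 16845 to 19265 on NP day8 arrays, 9904 to 13940 on BPA day8 arrays, 11299 to 21240 on control day8 arrays and 241 to 288 on control day0 arrays, and Afp, Ttr, Hnf4a and Apoa4 lay under background on all control day0 arrays. The 15 markers of feeder fibroblasts summed to 797 to 1024 on NP day8 arrays, 884 to 1050 on BPA day8 arrays, 6166 to 9135 on control day8 arrays and 8875 to 11408 on control day0 arrays, with Fap under background in all day 8 groups and Mmp3 in NP day8. The 10 markers of cardiac muscle summed to 414 to 2135 on NP day8 arrays, 473 to 755 on BPA day8 arrays, 4003 to 6093 on control day8 arrays and 156 to 180 on control day0 arrays, with Tnnt2 and Tnni1 under background on control day0 arrays. Feeder and cardiac marker sums were thus lower, and pluripotent marker sums higher, on every agent array than on every control day8 array. The part of these cell types in the changes below was not tested, and in such bulk samples fewer cells of a type and less RNA per cell cannot be told apart.

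Promoter windows of 6 members are shown because these genes stand for the behaviours described below. Except for Cbr3, only a window with a match to the motifs below could be shown, so the 6 windows do not represent the members. Me1 and Mgst1 each have a further annotated window, not shown, without a match. Srxn1 and Gclm were lower in control day8 than in control day0, Gstp1 and Me1 were higher, Mgst1 was the one member lower with BPA than in control day8, and Cbr3 had the largest change among the other NRF2 genes. The windows run from 250 bases before to 50 bases after the annotated start, 5′ to 3′ on the gene's strand, and come from RefSeq on GRCm38.p6. Capitals mark matches to TGACNNNGC, the core of the antioxidant response element, or to TGAGNNNGC, a variant added to the search after the windows had been read, on either strand. The windows are chr2:152105274-152105573 on the plus strand for Srxn1, chr19:4037863-4038162 on the minus strand for Gstp1, chr9:86695865-86696164 on the minus strand for Me1, chr3:122245307-122245606 on the plus strand for Gclm, chr6:138140277-138140576 on the plus strand for Mgst1 and chr16:93682969-93683268 on the plus strand for Cbr3.
Srxn1: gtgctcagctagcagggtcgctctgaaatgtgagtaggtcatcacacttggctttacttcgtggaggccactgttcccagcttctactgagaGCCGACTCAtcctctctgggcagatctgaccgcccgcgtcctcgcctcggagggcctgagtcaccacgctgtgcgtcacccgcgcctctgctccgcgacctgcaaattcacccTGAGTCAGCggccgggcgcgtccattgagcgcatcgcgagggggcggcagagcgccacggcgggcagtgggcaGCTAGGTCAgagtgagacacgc
Gstp1: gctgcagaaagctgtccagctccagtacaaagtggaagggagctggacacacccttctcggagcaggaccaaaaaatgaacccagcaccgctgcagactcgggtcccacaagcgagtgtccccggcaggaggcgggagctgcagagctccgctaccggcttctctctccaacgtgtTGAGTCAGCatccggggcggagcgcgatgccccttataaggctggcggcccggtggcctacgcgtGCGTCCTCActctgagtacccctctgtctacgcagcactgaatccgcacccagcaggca
Me1: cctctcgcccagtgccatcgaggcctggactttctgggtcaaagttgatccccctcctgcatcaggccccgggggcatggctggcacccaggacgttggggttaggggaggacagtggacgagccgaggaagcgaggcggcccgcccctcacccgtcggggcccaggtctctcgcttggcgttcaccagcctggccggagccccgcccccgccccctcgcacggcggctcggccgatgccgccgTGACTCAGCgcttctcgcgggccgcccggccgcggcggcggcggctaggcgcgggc
Gclm: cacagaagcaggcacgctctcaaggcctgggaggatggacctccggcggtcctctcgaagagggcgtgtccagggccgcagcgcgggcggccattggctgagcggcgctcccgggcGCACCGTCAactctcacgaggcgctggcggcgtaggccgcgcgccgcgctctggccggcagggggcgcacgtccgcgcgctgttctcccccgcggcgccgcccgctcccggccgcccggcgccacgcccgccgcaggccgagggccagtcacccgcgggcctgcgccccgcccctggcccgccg
Mgst1: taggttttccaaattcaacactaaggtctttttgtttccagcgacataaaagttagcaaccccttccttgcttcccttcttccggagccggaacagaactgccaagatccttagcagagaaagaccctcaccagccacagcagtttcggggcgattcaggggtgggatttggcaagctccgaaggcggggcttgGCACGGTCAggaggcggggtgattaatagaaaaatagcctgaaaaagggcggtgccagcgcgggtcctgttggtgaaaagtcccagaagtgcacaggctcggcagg
Cbr3: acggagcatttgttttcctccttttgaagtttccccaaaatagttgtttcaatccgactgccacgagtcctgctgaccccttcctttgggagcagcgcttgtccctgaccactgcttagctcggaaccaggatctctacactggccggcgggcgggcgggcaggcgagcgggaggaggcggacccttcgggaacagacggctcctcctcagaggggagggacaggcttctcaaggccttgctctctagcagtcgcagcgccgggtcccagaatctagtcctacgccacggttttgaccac

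In Me1 the match TGACTCAGC spans the start, beginning 6 bases before it. In Srxn1 TGAGTCAGC lies 45 to 37 bases before the start, and in Gstp1 the same letters lie 74 to 66 bases before it. These 3 matches also hold TGANTCA, the binding motif of AP-1 factors. The match of Gclm lies 134 to 126 bases before the start and that of Mgst1 56 to 48 bases before it, both on the reverse strand. No match was found in the window of Cbr3. Of the 37 members with a window, 11 (29.7%) held TGACNNNGC, against 14% of the 27025 genes with a window, and 9 (24.3%) held TGAGNNNGC, against 19.8%. A gene counted if any of its windows held a match. The 37 members had 51 windows and the 27025 genes 32851, so members had more windows per gene. Shares per window were not compared. A match describes letters only, and elements farther from the start lie outside these windows. Abcc1, Gclc, Gsr, Gsta4, Gstt2 and Hmox1 had no window.

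Control differentiation went with lower RNA of most of the other NRF2 genes, those that are not transferases. Of 39 members that could be tested, 7 were higher and 17 lower in control day8 than in control day0, against 48.7% of all genes called, 28.3% higher and 20.5% lower. Among the other NRF2 genes 1 of 20 was higher and 12 were lower. Of 19 transferases 6 (31.6%) were higher and 5 (26.3%) lower, shares near those of all genes. The median change of the members was -0.28, against 0.12 over all genes. The median of all genes was 0.01 after quantile normalization or median centring, with 24 and 23 members called in place of 24. Of the 24 calls, 18 held with every array left out in turn and under every alternative that tested the gene, except a 2-fold threshold. Those of Abcc1, Gsta3, Gstm1, Gstp1, Mgst3 and Srxn1 did not. Among the calls that held, a stricter filter left Gstp3 untested, and leaving out probe sets of shared design left Taldo1 and Txnrd1 untested. For Srxn1 the call ended only where another probe set stood for the gene.

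With either agent the members that changed were nearly all higher than in control day8. With BPA 20 members were higher and 1 was lower, against 22.2% of all genes called, 12% higher and 10.2% lower, and the member median was 0.46 against 0.04 over all genes. With NP 11 members were higher and 0 were lower, against 14.2% of all genes called, 7.90% higher and 6.28% lower, and the member median was 0.36 against 0.01. By limma 21 members had an unadjusted p under 0.05 with NP, of which 1, Keap1, was lower. They make up 53.8% of the members, beside 28.6% of all genes at that threshold. With BPA 8 of 19 transferases were higher and 1 lower, and 12 of 20 other NRF2 genes were higher. With NP 4 transferases and 7 other NRF2 genes were higher. Both agents were set against the same control day8 arrays, so these counts are not independent of each other.

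The BPA count ranged from 15 to 23 as single arrays were left out. Of its 21 calls, 13 held with each array left out and under every alternative that tested the gene, except the 2-fold threshold. Those of Abcc1, Ephx1, Gclm, Gstm3, Gsto1, Mgst1, Txn1 and Txnrd1 did not. Among the BPA calls that held, the stricter filter left Gstp3 untested, and leaving out probe sets of shared design left Gstp1 and Taldo1 untested. Leaving out control day8 replicate 1 brought the NP count to 6, and leaving out control day8 replicate 2 or NP day8 replicate 2 brought it to 7. Without NP day8 replicate 3 it was 5. The NP calls that held throughout were those of Abcc4, Cbr3, Gsta4 and Gstt2, while those of Gclc, Gstp1, Gstp3, Hmox1, Srxn1, Taldo1 and Txnrd1 did not. Against control day0, 10 members were higher and 10 lower with BPA, beside 33.6% of all genes called (21.7% higher, 11.9% lower). With NP 7 were higher and 9 lower, beside 32.1% of all genes called (20.2% higher, 11.9% lower).

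**Figure D1:**
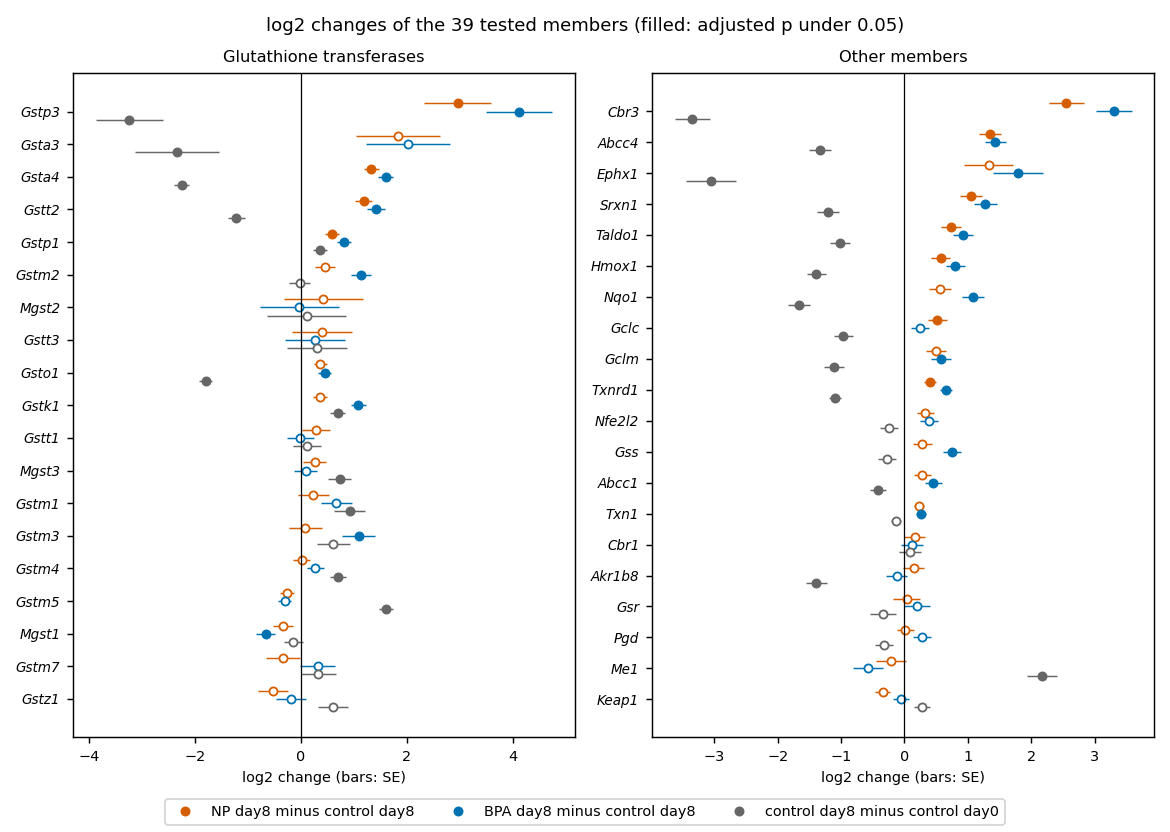
Changes in log2 signal of the 39 tested members on the x axis, with standard errors as bars: NP day8 minus control day8, BPA day8 minus control day8 and control day8 minus control day0. Filled points have an adjusted p under 0.05, and most points of the other NRF2 genes lie right of 0 for the agents and left of 0 for control differentiation.

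With all arrays and the chosen probe sets neither regulator passed in any of the 6 comparisons. Nfe2l2, the gene of NRF2, was at 9.06, 9.13 and 9.12 on NP day8 arrays, 9.0, 9.18 and 9.29 on BPA day8 arrays, 8.73, 8.53 and 9.06 on control day8 arrays and 9.13, 9.04 and 8.89 on control day0 arrays. Its agent arrays overlapped control day8, and its changes of 0.33 ± 0.14 with NP (adjusted p = 0.156) and 0.39 ± 0.14 with BPA (adjusted p = 0.0779) did not pass. Without control day8 replicate 3, its highest control day8 array, Nfe2l2 passed at 0.47 with NP (adjusted p = 0.0355), 0.53 with BPA (adjusted p = 0.0161) and -0.39 in control differentiation (adjusted p = 0.0287). A second, dimmer probe set of Nfe2l2 had changes of -1.39 with NP and -0.76 with BPA. Keap1, the adaptor that presents NRF2 for degradation, was at 6.78, 6.96 and 7.11 on NP day8 arrays, 7.18, 7.25 and 7.28 on BPA day8 arrays, 7.21, 7.20 and 7.47 on control day8 arrays and 6.85, 7.10 and 7.10 on control day0 arrays. All NP day8 arrays of Keap1 lay below all control day8 arrays, but the change of -0.35 ± 0.12 did not pass (adjusted p = 0.0955). With the mean of its probe sets Keap1 passed in control differentiation at 0.49 (adjusted p = 0.0494).

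Nqo1, which reduces quinones to hydroquinones, was at 6.17, 6.04 and 6.23 on NP day8 arrays, 6.66, 6.55 and 6.79 on BPA day8 arrays, 5.86, 5.53 and 5.37 on control day8 arrays and 7.29, 7.54 and 6.92 on control day0 arrays. The groups did not overlap, with control day0 highest and control day8 lowest. Nqo1 was 2.11-fold higher with BPA than in control day8 (log2 change 1.08 ± 0.17, adjusted p = 0.00276) and 3.16-fold lower in control day8 than in control day0 (-1.66 ± 0.17, adjusted p = 5.89e-05). With NP its change of 0.56 ± 0.17 did not pass (adjusted p = 0.0630), but it passed without control day0 replicate 3 (adjusted p = 0.0371). Nqo1 stayed below control day0 with both agents, at -1.11 ± 0.17 with NP (adjusted p = 0.00138) and -0.58 ± 0.17 with BPA (adjusted p = 0.0276). The BPA call against control day0 ended without BPA day8 replicate 1 or 2 or control day0 replicate 1 or 2 (adjusted p up to 0.0945).

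Hmox1, the inducible heme oxygenase that opens heme to biliverdin, was at 8.14, 7.79 and 7.71 on NP day8 arrays, 8.18, 7.98 and 8.18 on BPA day8 arrays, 7.24, 7.11 and 7.58 on control day8 arrays and 8.61, 8.66 and 8.82 on control day0 arrays. Its control day8 arrays were the lowest and its control day0 arrays the highest. Hmox1 was higher than in control day8 by 0.57 ± 0.15 with NP (adjusted p = 0.0374) and by 0.80 ± 0.15 with BPA (adjusted p = 0.00590), and its change in control differentiation was -1.39 ± 0.15 (adjusted p = 7.9e-05). The NP call ended without NP day8 replicate 1, 2 or 3, BPA day8 replicate 1 or 3, control day8 replicate 1 or 2 or control day0 replicate 1 or 2 (adjusted p up to 0.117).

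Srxn1, sulfiredoxin, which repairs overoxidised peroxiredoxins, was at 7.13, 7.28 and 7.35 on NP day8 arrays, 7.41, 7.51 and 7.53 on BPA day8 arrays, 6.27, 6.02 and 6.33 on control day8 arrays and 7.0, 7.48 and 7.75 on control day0 arrays. Both agents' arrays lay above every control day8 array and within the control day0 range. Srxn1 was 2.07-fold higher with NP (1.05 ± 0.18, adjusted p = 0.00604) and 2.42-fold higher with BPA (1.28 ± 0.18, adjusted p = 0.00140) than in control day8. With the second brightest probe set, which also stands for Srxn1 without shared designs, the NP change was 0.87 and did not pass (adjusted p = 0.134 and 0.106). Its changes from control day0 were -0.16 ± 0.18 with NP (adjusted p = 0.545) and 0.07 ± 0.18 with BPA (adjusted p = 0.790), neither of which passed.

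Txnrd1, the cytosolic thioredoxin reductase, was at 10.13, 9.93 and 10.06 on NP day8 arrays, 10.31, 10.36 and 10.21 on BPA day8 arrays, 9.56, 9.64 and 9.72 on control day8 arrays and 10.69, 10.70 and 10.82 on control day0 arrays. The 4 groups did not overlap. Txnrd1 was higher than in control day8 by 0.40 ± 0.09 with NP (adjusted p = 0.0227) and by 0.65 ± 0.09 with BPA (adjusted p = 0.00163), and lower in control day8 than in control day0 at -1.09 ± 0.09 (adjusted p = 2.21e-05). The NP call ended without NP day8 replicate 1 or 3 or control day8 replicate 1 or 2 (adjusted p up to 0.0856). With the second brightest probe set of Txnrd1, which is dim, the changes were 0.78 with NP (adjusted p = 0.331) and 0.10 with BPA (adjusted p = 0.908), and with the mean of its probe sets neither passed (adjusted p = 0.196 and 0.166). Its substrate Txn1, thioredoxin, changed by 0.26 ± 0.08 with BPA (adjusted p = 0.0378), a call that ended without NP day8 replicate 1 or 2, BPA day8 replicate 1, 2 or 3, control day8 replicate 1 or 2 or control day0 replicate 1 or 2 (adjusted p up to 0.115).

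**Figure D2:**
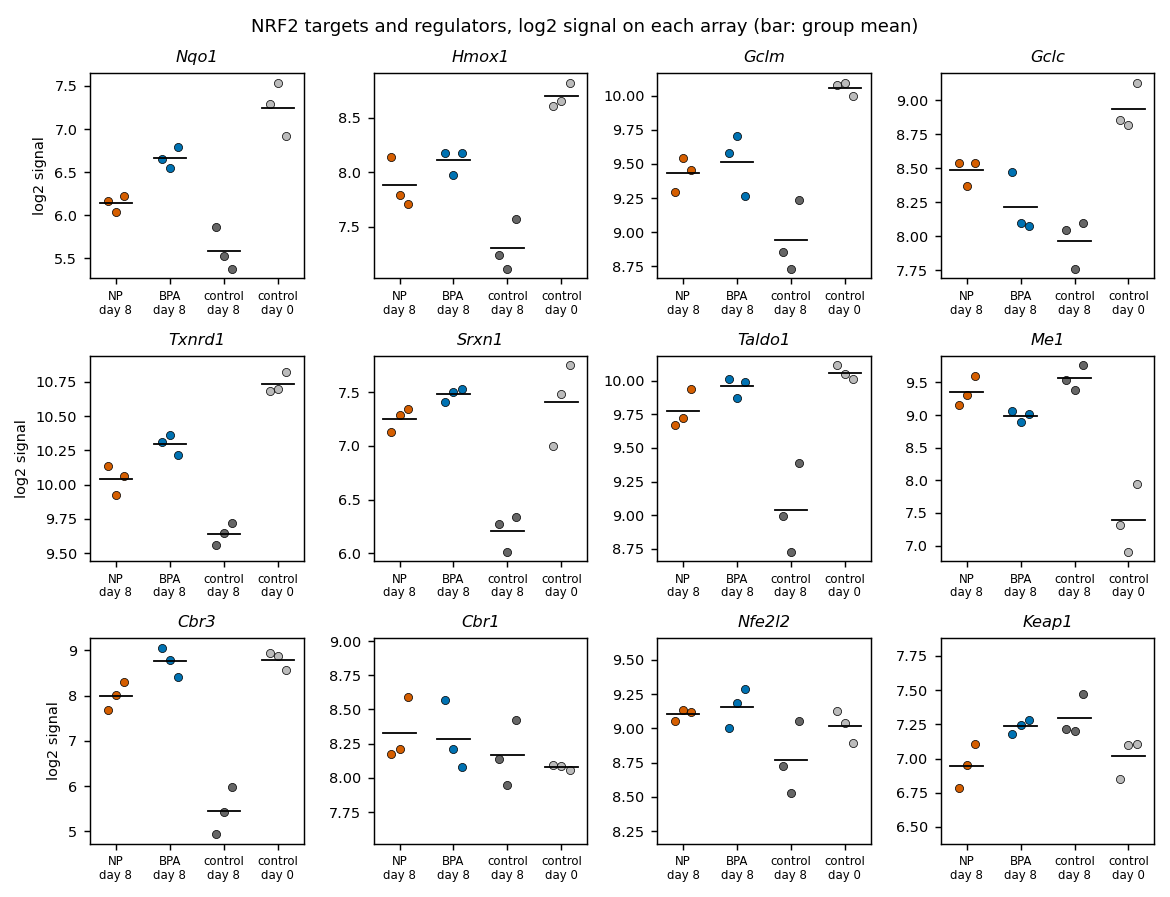
Log2 signals of 12 NRF2 genes on each array, in panels with the groups NP day8, BPA day8, control day8 and control day0 from left to right, points for arrays and bars for group means. For Nqo1, Hmox1, Gclm, Txnrd1, Srxn1, Taldo1 and Cbr3 the control day8 arrays are the lowest group, while Me1 has its lowest arrays in control day0.

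Glutamate-cysteine ligase makes the first and limiting step of glutathione synthesis. Its catalytic subunit Gclc was at 8.54, 8.37 and 8.54 on NP day8 arrays, 8.47, 8.10 and 8.07 on BPA day8 arrays, 8.05, 7.76 and 8.10 on control day8 arrays and 8.85, 8.82 and 9.13 on control day0 arrays. The control day0 arrays were the highest, and Gclc was lower in control day8 than in control day0 at -0.97 ± 0.15 (adjusted p = 0.000550). Gclc passed with NP at 0.52 ± 0.15 (adjusted p = 0.0465) and did not with BPA at 0.25 ± 0.15 (adjusted p = 0.273). The NP call ended without NP day8 replicate 1, 2 or 3, BPA day8 replicate 2 or 3, control day8 replicate 1 or 2 or control day0 replicate 1 or 2 (adjusted p up to 0.145), and the difference between the agents was 0.27 ± 0.15 (adjusted p = 0.672). The other probe set of Gclc, of similar brightness, had changes of 0.62 with NP and 0.61 with BPA. With that probe set both agents passed (adjusted p = 0.0348 with NP and 0.0230 with BPA), so the pass with 1 agent alone rests on the choice of probe set.

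Gclm, the modifier subunit of the ligase, was at 9.30, 9.55 and 9.46 on NP day8 arrays, 9.58, 9.70 and 9.26 on BPA day8 arrays, 8.86, 8.73 and 9.23 on control day8 arrays and 10.08, 10.10 and 9.99 on control day0 arrays. It was 2.17-fold lower in control day8 than in control day0 (-1.12 ± 0.16, adjusted p = 0.000314). With BPA Gclm was higher than in control day8 at 0.58 ± 0.16 (adjusted p = 0.0266), a call that ended without BPA day8 replicate 1 or 2 or control day8 replicate 1 or 2 (adjusted p up to 0.0903). With NP it was at 0.49 ± 0.16, with no overlap between the groups, and did not pass (adjusted p = 0.0657), although it did without control day8 replicate 3 (adjusted p = 0.0211).

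Gss, glutathione synthetase, was at 6.31, 6.77 and 6.4 on NP day8 arrays, 6.84, 6.91 and 7.12 on BPA day8 arrays and 6.13, 6.08 and 6.41 on control day8 arrays. Like Taldo1 and Gstm2 below, it lies outside the rule for naming members and was chosen after its values were seen. Gss was higher with BPA than in control day8 at 0.75 ± 0.15 (adjusted p = 0.00656), and at 0.28 ± 0.15 with NP it did not pass (adjusted p = 0.236). The other probe set of Gss, of similar brightness, had changes of 0.84 with NP, which did not pass (adjusted p = 0.122), and 1.0 with BPA (adjusted p = 0.0473), and a difference between the agents of -0.16 in place of -0.46. Gsr, which recycles oxidised glutathione, was at 8.29, 8.05 and 8.0 on NP day8 arrays, 8.32, 8.58 and 7.93 on BPA day8 arrays, 8.0, 7.76 and 8.48 on control day8 arrays and 8.43, 8.52 and 8.31 on control day0 arrays. The day 8 groups of Gsr overlapped, and control day8 overlapped control day0, while every NP day8 array lay just below every control day0 array. Its changes of 0.03 ± 0.21 with NP, 0.20 ± 0.21 with BPA and -0.34 ± 0.21 in control differentiation did not pass (adjusted p = 0.940, 0.544 and 0.210). With the other probe set of Gsr the change in control differentiation was -1.04 and passed (adjusted p = 0.00538), and without control day8 replicate 3 the chosen probe set passed at -0.54 (adjusted p = 0.0478).

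Carbonyl reductases reduce ketones and quinones, and Cbr1 and Cbr3 are neighbours on chromosome 16. Cbr3 was at 7.68, 8.01 and 8.31 on NP day8 arrays, 9.06, 8.80 and 8.41 on BPA day8 arrays, 4.94, 5.43 and 5.98 on control day8 arrays and 8.93, 8.88 and 8.57 on control day0 arrays. All agent and control day0 arrays of Cbr3 lay above every control day8 array. Cbr3 was 5.87-fold higher with NP (2.55 ± 0.28, adjusted p = 0.000990) and 9.89-fold higher with BPA (3.31 ± 0.28, adjusted p = 0.000233) than in control day8, and 10.2-fold lower in control day8 than in control day0 (-3.35 ± 0.28, adjusted p = 1.92e-05). Cbr1 was at 8.18, 8.21 and 8.59 on NP day8 arrays, 8.57, 8.21 and 8.08 on BPA day8 arrays, 8.14, 7.95 and 8.42 on control day8 arrays and 8.10, 8.09 and 8.06 on control day0 arrays. Its day 8 groups overlapped, with changes of 0.16 ± 0.17 with NP, 0.12 ± 0.17 with BPA and 0.09 ± 0.17 in control differentiation, none of which passed (adjusted p = 0.592, 0.663 and 0.709).

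Ephx1, the microsomal epoxide hydrolase, was at 4.95, 5.61 and 5.11 on NP day8 arrays, 5.75, 5.63 and 5.69 on BPA day8 arrays, 2.94, 3.89 and 4.86 on control day8 arrays and 6.96, 6.78 and 7.11 on control day0 arrays. Control day8 held the widest spread, with its lowest array under the background level. Ephx1 was lower in control day8 than in control day0 at -3.05 ± 0.39 (adjusted p = 0.000196) and higher with BPA than in control day8 at 1.79 ± 0.39 (adjusted p = 0.0107), a call that ended with only the 2 groups compared in the fit (adjusted p = 0.0561). With NP its change of 1.33 ± 0.39 did not pass (adjusted p = 0.0518), but it passed without control day8 replicate 3 at 1.81 (adjusted p = 0.00509). Ephx1 was below control day0 with both agents, at -1.73 ± 0.39 with NP (adjusted p = 0.00882) and -1.26 ± 0.39 with BPA (adjusted p = 0.0336), and the BPA call ended without BPA day8 replicate 1, 2 or 3 or control day0 replicate 1, 2 or 3 (adjusted p up to 0.0826).

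Akr1b8, an aldo-keto reductase, was at 6.23, 6.71 and 6.96 on NP day8 arrays, 6.33, 6.30 and 6.47 on BPA day8 arrays, 6.61, 6.41 and 6.44 on control day8 arrays and 7.82, 7.98 and 7.83 on control day0 arrays. Every day 8 array lay below every control day0 array, whichever agent was present. Akr1b8 differed from control day0 by -1.24 ± 0.17 with NP (adjusted p = 0.000616), -1.51 ± 0.17 with BPA (adjusted p = 0.000208) and -1.39 ± 0.17 in control day8 (adjusted p = 0.000130). Its changes from control day8 were 0.15 ± 0.17 with NP and -0.12 ± 0.17 with BPA, and neither passed (adjusted p = 0.616 and 0.655).

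Enzymes around NADPH went in different directions in control differentiation. Taldo1, the transaldolase of the pentose phosphate pathway, was at 9.67, 9.72 and 9.94 on NP day8 arrays, 10.01, 9.87 and 9.99 on BPA day8 arrays, 9.0, 8.73 and 9.39 on control day8 arrays and 10.12, 10.05 and 10.01 on control day0 arrays. Its control day8 arrays were the lowest. Taldo1 was higher than in control day8 by 0.74 ± 0.16 with NP (adjusted p = 0.0150) and by 0.92 ± 0.16 with BPA (adjusted p = 0.00348), and lower in control day8 than in control day0 at -1.02 ± 0.16 (adjusted p = 0.000529). The NP call ended without NP day8 replicate 3 or control day8 replicate 1 (adjusted p up to 0.0583). Pgd, the phosphogluconate dehydrogenase of the same pathway, had changes of 0.01 with NP, 0.28 with BPA and -0.33 in control differentiation, and did not pass (adjusted p = 0.965, 0.184 and 0.0770). In control differentiation Pgd passed without control day8 replicate 3 at -0.45 (adjusted p = 0.0193).

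Me1, the cytosolic malic enzyme that yields NADPH, was at 9.16, 9.31 and 9.59 on NP day8 arrays, 9.06, 8.89 and 9.02 on BPA day8 arrays, 9.54, 9.38 and 9.76 on control day8 arrays and 7.32, 6.91 and 7.95 on control day0 arrays. All day 8 arrays lay above all control day0 arrays. Me1 was 4.51-fold higher in control day8 than in control day0 (2.17 ± 0.24, adjusted p = 7.41e-05), the one other NRF2 gene that was higher there. Its changes from control day8 were -0.21 ± 0.24 with NP and -0.57 ± 0.24 with BPA, and neither passed (adjusted p = 0.615 and 0.116). The BPA change passed without control day0 replicate 3 (adjusted p = 0.0364).

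Both exporters had their lowest mean in control day8. Abcc4, which exports conjugates and cyclic nucleotides, was at 9.67, 9.83 and 9.62 on NP day8 arrays, 9.78, 9.93 and 9.65 on BPA day8 arrays, 8.08, 8.19 and 8.79 on control day8 arrays and 9.63, 9.69 and 9.76 on control day0 arrays. The agent arrays overlapped control day0 and lay above every control day8 array. Abcc4 was 2.56-fold higher with NP (1.35 ± 0.17, adjusted p = 0.00162) and 2.71-fold higher with BPA (1.44 ± 0.17, adjusted p = 0.000740) than in control day8, and 2.53-fold lower in control day8 than in control day0 (-1.34 ± 0.17, adjusted p = 0.000201).

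Abcc1, which exports glutathione conjugates, was at 8.36, 8.64 and 8.15 on NP day8 arrays, 8.50, 8.70 and 8.46 on BPA day8 arrays, 8.16, 8.09 and 8.05 on control day8 arrays and 8.64, 8.43 and 8.49 on control day0 arrays. Its change with BPA was 0.45 ± 0.13 (adjusted p = 0.0379), and the call ended without NP day8 replicate 1, BPA day8 replicate 1, 2 or 3 or control day8 replicate 1, 2 or 3 (adjusted p up to 0.121). A dimmer probe set of Abcc1 had a change of -0.17 with BPA. Its change in control differentiation was -0.42 ± 0.13 (adjusted p = 0.0267), a call that ended without control day8 replicate 2 or 3 or control day0 replicate 1 (adjusted p up to 0.0911), and with NP it was 0.28 ± 0.13 and did not pass (adjusted p = 0.199).

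Gsta4, an alpha class enzyme that conjugates lipid aldehydes, was at 10.50, 10.51 and 10.74 on NP day8 arrays, 10.92, 10.84 and 10.84 on BPA day8 arrays, 9.02, 9.18 and 9.59 on control day8 arrays and 11.54, 11.53 and 11.44 on control day0 arrays. The 4 groups did not overlap, with control day0 highest and control day8 lowest. Gsta4 was 2.51-fold higher with NP (1.33 ± 0.14, adjusted p = 0.000922) and 3.04-fold higher with BPA (1.60 ± 0.14, adjusted p = 0.000265) than in control day8. It was 4.74-fold lower in control day8 than in control day0 (-2.24 ± 0.14, adjusted p = 6.29e-06) and remained below control day0 with NP at -0.92 ± 0.14 (adjusted p = 0.00126) and with BPA at -0.64 ± 0.14 (adjusted p = 0.00724).

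Gstt2, of the theta class, was at 6.33, 6.70 and 6.93 on NP day8 arrays, 6.91, 7.0 and 6.75 on BPA day8 arrays, 5.58, 5.31 and 5.52 on control day8 arrays and 6.57, 6.58 and 6.90 on control day0 arrays. Its control day8 arrays stood alone below the other 3 groups, which overlapped. Gstt2 was 2.27-fold higher with NP (1.18 ± 0.17, adjusted p = 0.00265) and 2.67-fold higher with BPA (1.42 ± 0.17, adjusted p = 0.000677) than in control day8, and its change in control differentiation was -1.22 ± 0.17 (adjusted p = 0.000287). Gstt1, from the same run of theta genes on chromosome 10, was at 5.71, 5.20 and 5.65 on NP day8 arrays, 5.44, 5.01 and 5.22 on BPA day8 arrays, 5.76, 4.93 and 5.0 on control day8 arrays and 4.93, 4.90 and 5.53 on control day0 arrays. The groups of Gstt1 overlapped, with changes from control day8 of 0.29 ± 0.26 with NP and -0.01 ± 0.26 with BPA that did not pass (adjusted p = 0.519 and 0.989). Gstt3, also of that run, is described with the other members that gave no call.

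Gsto1, the omega class enzyme that reduces dehydroascorbate, was at 8.45, 8.43 and 8.37 on NP day8 arrays, 8.28, 8.53 and 8.72 on BPA day8 arrays, 8.07, 7.98 and 8.11 on control day8 arrays and 9.95, 9.69 and 9.91 on control day0 arrays. Every day 8 array lay below every control day0 array. Gsto1 was below control day0, at -1.43 ± 0.12 with NP (adjusted p = 5.36e-05), -1.34 ± 0.12 with BPA (adjusted p = 7.57e-05) and -1.80 ± 0.12 in control day8 (adjusted p = 8.68e-06). Its BPA change from control day8 of 0.46 ± 0.12 passed (adjusted p = 0.0265), but the call ended without BPA day8 replicate 2 or 3 or control day8 replicate 1 or 2 (adjusted p up to 0.0853), and the other probe set of Gsto1 had a change of -0.12. With NP the change was 0.36 ± 0.12 and did not pass (adjusted p = 0.0818).

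Gstp1, the pi class enzyme, was at 11.22, 11.41 and 11.41 on NP day8 arrays, 11.59, 11.52 and 11.63 on BPA day8 arrays, 10.63, 10.66 and 10.98 on control day8 arrays and 10.20, 10.41 and 10.60 on control day0 arrays. The order of the groups was BPA day8, NP day8, control day8 and control day0, with no overlap between neighbours. Gstp1 was higher than in control day8 by 0.59 ± 0.13 with NP (adjusted p = 0.0198) and by 0.82 ± 0.13 with BPA (adjusted p = 0.00287), and higher than in control day0 by 0.95 ± 0.13 with NP (adjusted p = 0.000791) and by 1.18 ± 0.13 with BPA (adjusted p = 0.000238). The NP call against control day8 ended without NP day8 replicate 2 or 3 or control day8 replicate 1 or 2 (adjusted p up to 0.0761). Its change of 0.36 ± 0.13 in control differentiation passed (adjusted p = 0.0495), and that call ended without NP day8 replicate 1, 2 or 3, BPA day8 replicate 1, 2 or 3, control day8 replicate 1, 2 or 3 or control day0 replicate 1 or 2 (adjusted p up to 0.172). Gstp1 and Gstp2 lie side by side on chromosome 19 and are close in sequence, so the probe set may not tell them apart.

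Gstp3, from the same gene run, was at 2.45, 4.39 and 3.62 on NP day8 arrays, 4.41, 5.08 and 4.45 on BPA day8 arrays, 0.79, 1.66 and -0.87 on control day8 arrays and 4.08, 3.54 and 3.67 on control day0 arrays. All control day8 arrays lay under the background level, as did 1 NP day8 array, so folds are bounds against that level. Gstp3 was at least 1.06-fold higher with NP and at least 2.36-fold higher with BPA than in control day8. It was at least 1.28-fold lower in control day8 than in control day0. The fitted changes of 2.96 with NP, 4.12 with BPA and -3.24 in control differentiation passed (adjusted p = 0.0156, 0.00217 and 0.00216). These p-values belong to the fitted changes, which rest on control day8 values under background, and not to the bounds. The mean of Gstp3 over all arrays, 3.11, met the filter although its control day8 mean was 0.53. Gstp3 is counted among the called members in each of these comparisons. The NP call ended without NP day8 replicate 2 or 3 (adjusted p up to 0.0609). Gsta3, of the alpha class and also close to background, was at 4.26, 3.73 and 2.99 on NP day8 arrays, 4.33, 3.66 and 3.58 on BPA day8 arrays, -0.41, 2.59 and 3.32 on control day8 arrays and 4.24, 4.13 and 4.12 on control day0 arrays. All its control day8 arrays lay under the level. Gsta3 was at least 1.69-fold lower in control day8 than in control day0. Its limma call (adjusted p = 0.0345) belongs to the fitted change, which also rests on control day8 values under background. That call ended without control day0 replicate 1, 2 or 3 (adjusted p up to 0.0799), and its fitted change was -1.21 without control day8 replicate 1, against -2.33 with all arrays.

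Gstk1, the kappa class enzyme of mitochondria and peroxisomes, was at 5.97, 6.10 and 6.32 on NP day8 arrays, 6.76, 7.0 and 6.80 on BPA day8 arrays, 5.69, 5.83 and 5.78 on control day8 arrays and 4.81, 5.16 and 5.24 on control day0 arrays. The groups did not overlap, with BPA day8 highest and control day0 lowest. Gstk1 was 2.13-fold higher with BPA than in control day8 (1.09 ± 0.14, adjusted p = 0.000998), and its NP change of 0.36 ± 0.14 did not pass (adjusted p = 0.122). In control differentiation Gstk1 was higher at 0.70 ± 0.14 (adjusted p = 0.00264).

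**Figure D3:**
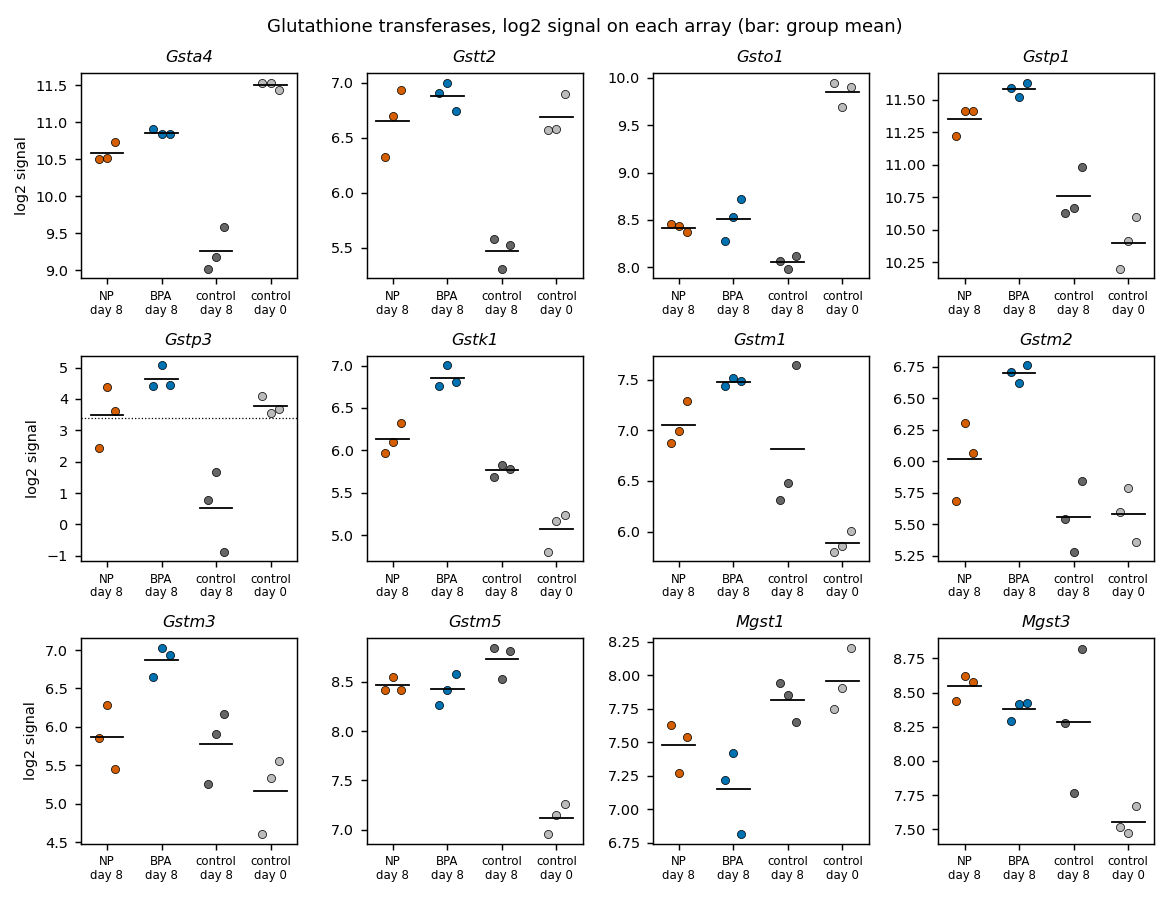
Log2 signals of 12 glutathione transferases on each array, in panels with the groups NP day8, BPA day8, control day8 and control day0 from left to right, points for arrays and bars for group means, with the background level of 3.41 as a dotted line. Gsta4, Gstt2 and Gstp3 have their lowest arrays in control day8, whereas Gstk1, Gstp1 and Gstm5 have theirs in control day0.

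The mu class genes lie side by side on chromosome 3 in the order Gstm5, Gstm7, Gstm6, Gstm3, Gstm2, Gstm1 and Gstm4, and 6 of them were tested. Against control day0, 3 were higher with NP, 5 with BPA and 3 in control day8, beside 20.2%, 21.7% and 28.3% of all genes, and 0 were lower in any of these. Against control day8 and with all arrays, 0 passed with NP by limma, where 1 had an unadjusted p under 0.05. With BPA 2 were higher, and the shares of all genes higher were 7.90% with NP and 12% with BPA. Members of the class are close in sequence, and the probe sets of Gstm1 and Gstm3 have designs that can match other transcripts.

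Gstm1 was at 6.88, 6.99 and 7.29 on NP day8 arrays, 7.43, 7.52 and 7.49 on BPA day8 arrays, 6.31, 6.48 and 7.64 on control day8 arrays and 5.80, 5.86 and 6.0 on control day0 arrays. Control day8 replicate 3 stood above its group. From control day8 Gstm1 changed by 0.24 with NP and by 0.67 with BPA, and neither passed with all arrays. Without control day8 replicate 3 it passed at 0.65 with NP (adjusted p = 0.0164) and 1.08 with BPA (adjusted p = 0.00127). Gstm1 was higher than in control day0 by 1.16 ± 0.29 with NP (adjusted p = 0.0138), by 1.59 ± 0.29 with BPA (adjusted p = 0.00284) and by 0.93 ± 0.29 in control day8 (adjusted p = 0.0251). The change in control differentiation was 0.51 without control day8 replicate 3, and its call ended without control day0 replicate 1 or 2 (adjusted p up to 0.0680).

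Gstm5 was at 8.42, 8.55 and 8.42 on NP day8 arrays, 8.27, 8.42 and 8.58 on BPA day8 arrays, 8.85, 8.52 and 8.81 on control day8 arrays and 6.95, 7.15 and 7.26 on control day0 arrays. All day 8 arrays lay above control day0, and Gstm5 was 3.04-fold higher in control day8 than in control day0 (1.61 ± 0.13, adjusted p = 1.62e-05), with changes from control day0 of 1.34 ± 0.13 with NP (adjusted p = 0.000105) and 1.30 ± 0.13 with BPA (adjusted p = 0.000118). Gstm4, at the other end of the cluster, was at 6.12, 6.12 and 5.76 on NP day8 arrays, 6.23, 6.17 and 6.36 on BPA day8 arrays, 5.77, 6.04 and 6.12 on control day8 arrays and 4.99, 5.45 and 5.39 on control day0 arrays. Every day 8 array lay above every control day0 array. Gstm4 was higher than in control day0 by 0.72 ± 0.16 with NP (adjusted p = 0.00755), by 0.98 ± 0.16 with BPA (adjusted p = 0.00156) and by 0.70 ± 0.16 in control day8 (adjusted p = 0.00497).

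Gstm3 was at 5.85, 6.29 and 5.45 on NP day8 arrays, 6.64, 7.03 and 6.93 on BPA day8 arrays, 5.26, 5.90 and 6.17 on control day8 arrays and 4.60, 5.33 and 5.55 on control day0 arrays. Its BPA day8 arrays were the highest. With BPA it was above control day8 at 1.09 ± 0.32 (adjusted p = 0.0348), a call that ended without BPA day8 replicate 1, 2 or 3 or control day8 replicate 1 or 2 (adjusted p up to 0.120), and above control day0 at 1.71 ± 0.32 (adjusted p = 0.00300). Its NP change from control day8 was 0.09 ± 0.32 and did not pass (adjusted p = 0.891). Gstm2 was at 5.68, 6.30 and 6.07 on NP day8 arrays, 6.71, 6.62 and 6.76 on BPA day8 arrays, 5.54, 5.28 and 5.85 on control day8 arrays and 5.60, 5.79 and 5.36 on control day0 arrays. Its BPA day8 arrays lay above those of the other groups, at 1.14 ± 0.19 from control day8 (adjusted p = 0.00334), and the NP change of 0.46 ± 0.19 did not pass (adjusted p = 0.148).

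**Figure D4:**
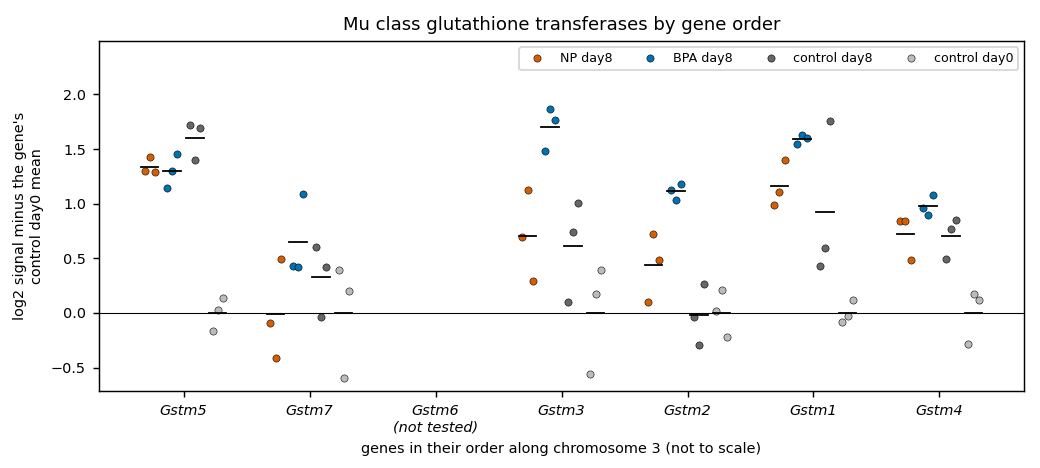
Log2 signals of the tested mu class genes minus the gene's control day0 mean, in gene order along chromosome 3, with points for arrays and lines for group means of NP day8, BPA day8, control day8 and control day0. All 9 day 8 arrays lie above 0 at Gstm5, Gstm3, Gstm1 and Gstm4, and at Gstm3 and Gstm2 the BPA day8 arrays lie highest.

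Microsomal transferases are membrane proteins, unlike the classes above. Mgst1 was at 7.63, 7.27 and 7.54 on NP day8 arrays, 7.22, 7.42 and 6.81 on BPA day8 arrays, 7.94, 7.85 and 7.65 on control day8 arrays and 7.75, 7.91 and 8.20 on control day0 arrays. It was the 1 member that was lower with BPA than in control day8, at -0.66 ± 0.18 (adjusted p = 0.0290), and the call ended without BPA day8 replicate 1 or 3 or control day8 replicate 1 or 2 (adjusted p up to 0.0975). Its NP change of -0.34 ± 0.18 did not pass (adjusted p = 0.264). Mgst1 was also called lower with BPA than in control day0, at -0.80. That call held with each array left out and under every alternative that tested the gene, except the 2-fold threshold. Mgst3 was at 8.44, 8.62 and 8.58 on NP day8 arrays, 8.30, 8.42 and 8.43 on BPA day8 arrays, 8.28, 7.76 and 8.82 on control day8 arrays and 7.52, 7.47 and 7.67 on control day0 arrays. It was higher than in control day0 by 0.99 ± 0.22 with NP (adjusted p = 0.00741), by 0.83 ± 0.22 with BPA (adjusted p = 0.0165) and by 0.73 ± 0.22 in control day8 (adjusted p = 0.0191). For Mgst3 the BPA call against control day0 ended without BPA day8 replicate 3 or control day0 replicate 2 (adjusted p up to 0.0513) and the control day8 call ended without control day0 replicate 1 or 2 (adjusted p up to 0.0563). Without control day8 replicate 3, which was its highest control day8 array, that change was 0.47 in place of 0.73.

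The remaining members gave no call in any of the 6 comparisons or were too dim to test. Gstm7, Gstt3, Gstz1, which isomerises maleylacetoacetate in tyrosine breakdown, and Mgst2 were tested and did not pass in any comparison with all arrays, with changes from control day8 between -0.52 and 0.42 with NP and between -0.18 and 0.32 with BPA. With 1 array left out, Gstz1 passed in control differentiation without control day0 replicate 3 (adjusted p = 0.0441) and Gstt3 with BPA against control day0 without BPA day8 replicate 2 (adjusted p = 0.0419). A second probe set of Gstm7, also near background, had changes of 1.69 with NP and 1.37 with BPA. Gsta2, Gstm6, Gsto2 and Gstt4 did not pass the filter on dim probe sets. Of these, Gstm6 and Gstt4 are given because their agent arrays did not overlap control day8, in opposite directions. The share of all genes without such overlap was not computed, so this is a description only. Gstm6 was higher with both agents, at 3.54, 3.46 and 3.61 on NP day8 arrays and 3.94, 4.14 and 3.84 on BPA day8 arrays, against 2.28, 2.66 and -1.12 on control day8 arrays. All control day8 arrays of Gstm6 lay under the background level and its NP day8 arrays little above it, so it is given no fold. Gstt4 was lower with both agents, at -0.13, 1.42 and 0.31 on NP day8 arrays and 0.21, 1.26 and 2.0 on BPA day8 arrays, against 3.26, 3.70 and 3.13 on control day8 arrays. Both group means of Gstt4 lay under the background level, so it is given no fold either. The exact permutation p of either gene was 0.1 for each agent, 2-sided, the smallest that 3 arrays against 3 allow. Any gene without overlap has this p, so it adds no support.

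No member differed between the agents past the threshold. By limma 0 of 39 members were called in NP day8 against BPA day8, where 0.00765% of all genes were called, and the lowest adjusted p of a member was 0.277. At an unadjusted p under 0.05 there were 8 members, Gstk1, Gstm2, Gstm3, Gss, Nqo1, Txnrd1, Cbr3 and Keap1, against 8.38% of all genes. All 8 (20.5% of the members) were lower with NP, against 4.53% of all genes, and the member median was -0.23 beside -0.02 over all genes. Other probe sets gave 0.68 and -0.34 for Txnrd1, 0.06 for Keap1 and -0.16 for Gss. For Gstm3 a probe set that did not pass the filter gave 0.89. Gstk1, Gstm2, Nqo1 and Cbr3 have 1 probe set each. The shared direction of the 8 thus rests in part on the chosen probe sets. The 95% interval of NP minus BPA was -1.04 to -0.41 for Gstk1, -1.71 to -0.29 for Gstm3, -1.11 to -0.25 for Gstm2 and -0.91 to -0.13 for Nqo1. It was -0.47 to 0.31 for Abcc4, -0.59 to 0.04 for Gsta4 and -0.63 to 0.17 for Srxn1, members called with both agents, so a p above the threshold does not show that the agents acted alike.

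**Figure D5:**
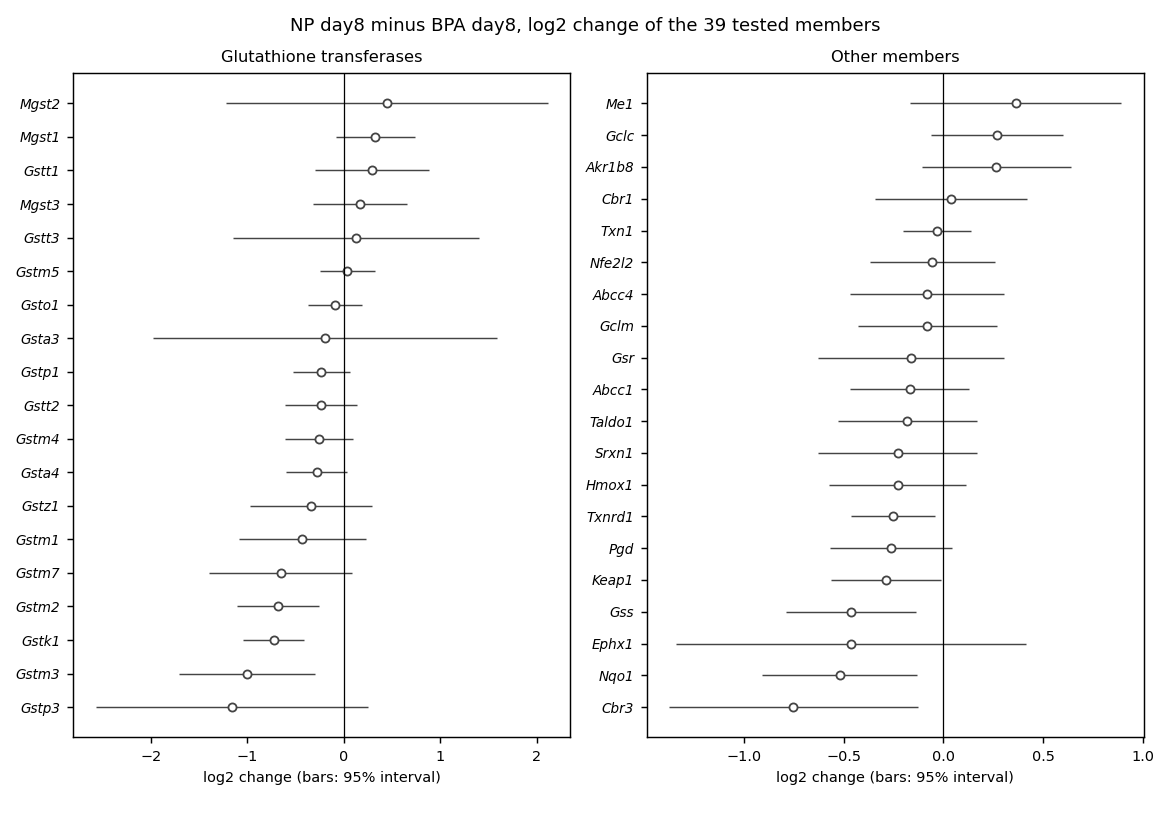
Differences in log2 signal of the tested members on NP day8 arrays minus BPA day8 arrays, with 95% intervals as bars. No member has an adjusted p under 0.05. With the probe set chosen for each gene, the members with an interval wholly below 0 are Gstk1, Gstm2, Gstm3, Gss, Nqo1, Txnrd1, Cbr3 and Keap1.

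Other genes of the glutathione and thioredoxin systems, came from a list of 43, of which 34 were tested. With NP 4 were higher and 1 lower than in control day8, 14.7% called beside 14.2% of all genes. With BPA 10 were higher and 6 lower, 47.1% beside 22.2%, and in control differentiation 7 were higher and 10 lower, 50% beside 48.7%. The shares with NP and in control differentiation were thus near those of all genes. The list's median changes were 0.15 with NP, 0.17 with BPA and -0.09 in control differentiation, beside 0.01, 0.04 and 0.12 over all genes. Gpx4, which reduces lipid hydroperoxides, was higher by 1.29 ± 0.17 with NP (adjusted p = 0.00207) and by 1.25 ± 0.17 with BPA (adjusted p = 0.00137). Ggct, gamma-glutamylcyclotransferase of glutathione breakdown, was higher by 1.11 ± 0.16 with NP (adjusted p = 0.00266) and by 1.24 ± 0.16 with BPA (adjusted p = 0.000938), and in control differentiation its change was -1.75 ± 0.16 (adjusted p = 2.82e-05). Gpx8, a peroxidase of the endoplasmic reticulum, was lower at -1.20 ± 0.20 with NP (adjusted p = 0.00502) and -1.31 ± 0.20 with BPA (adjusted p = 0.00200). Gpx3, the secreted glutathione peroxidase, was higher by 3.16 ± 0.14 in control differentiation (adjusted p = 2.28e-06).

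Of 30 other described NRF2 targets and detoxication genes, 19 were tested. Than in control day8, 2 were higher and 1 lower with NP, 15.8% called beside 14.2% of all genes, and 3 were higher and 2 lower with BPA, 26.3% beside 22.2%. In control differentiation 4 were higher and 2 lower, 31.6% beside 48.7%. Their median changes were 0.10 with NP, 0.26 with BPA and 0.28 in control differentiation. Ephx2, the soluble epoxide hydrolase, was higher by 0.86 ± 0.16 with NP (adjusted p = 0.00791) and by 0.81 ± 0.16 with BPA (adjusted p = 0.00615). Ptgr1 was higher by 0.55 ± 0.16 with NP (adjusted p = 0.0485) and by 1.12 ± 0.16 with BPA (adjusted p = 0.00154). Ugdh, which makes UDP-glucuronate, was lower at -0.78 ± 0.12 with NP (adjusted p = 0.00353) and -0.68 ± 0.12 with BPA (adjusted p = 0.00398).

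Among 15 partners and regulators of NRF2, of which 14 were tested, 0 were higher and 1 lower with NP, 7.14% called beside 14.2% of all genes, and 1 was higher and 3 lower with BPA, 28.6% beside 22.2%. In control differentiation 4 were higher and 2 lower, 42.9% beside 48.7%. Median changes were -0.10 with NP, -0.04 with BPA and 0.02 in control differentiation. Bach2, a repressor that shares MAF partners, was higher by 2.37 ± 0.31 in control differentiation (adjusted p = 0.000222). With BPA it was lower than in control day8 at -1.09 ± 0.31 (adjusted p = 0.0332), and with NP its change of -0.89 ± 0.31 did not pass (adjusted p = 0.0920). Fyn, a kinase described in the nuclear export of NRF2, was lower than in control day8 with both agents. Its changes were -0.96 ± 0.13 with BPA (adjusted p = 0.00128) and -0.47 ± 0.13 with NP (adjusted p = 0.0423). In control differentiation Fyn was higher at 0.40 ± 0.13 (adjusted p = 0.0305). In NP day8 against BPA day8, limma called 0 genes of these 3 lists, and 5, 1 and 3 genes, in the order given, had an unadjusted p under 0.05. These are 14.7%, 5.26% and 21.4% of the lists, beside 8.38% of all genes.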

How the data were processed

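Each array's RNA came from 1 sample of the 4 labelled groups. The authors deposited a log2 signal for each probe set, computed with MAS5 per the submitters' processing notes. Its version and scaling target are not given in the sources used here. A mean of linear signals trimmed by 2% at each end was 100.0 on every array, and no detection calls were used. Probe sets were named from the platform's gene table (34958 with 1 gene, 932 with several, 9211 not listed), and all 43 members matched a RefSeq gene.

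Values were used as deposited. The brightest 60% of probe sets (27023) were kept, and the probe set with the highest mean stood for each of 13067 genes, which left out 4 members. In limma 3.58.1 (R 4.3.3) 1 model took all 12 arrays with a coefficient for each group (8 residual and 1.57 prior degrees of freedom), 2-sided, with Benjamini-Hochberg adjustment over all genes in each of 6 comparisons. The method was tested on simulated data with independent normal noise and 1 spread per gene in all groups. That test does not cover unequal spreads between groups or technical replicates. The number of arrays limits the precision. The background level was the highest value of 3 bacterial control probe sets (TrpnX) and was chosen after the data were seen. Where a group lay under it, folds are bounds against it.

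Values per array were given for the 6 largest rises and 6 largest falls per comparison among called members whose groups did not overlap, and for a fixed set of well-known members. Members and lists were chosen with earlier results of these data known. The alternatives were 2 pseudocounts (16 and 32), other filters, quantile normalization, median centring, other probe sets, other variance priors, array weights, only the 2 groups compared, a block for the replicate number, a 2-fold threshold and each array left out. Figures were drawn with matplotlib 3.10.9.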

Additional observations from a re-analysis of the deposited data

How the results depend on the processing

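Calls of members under the 14 alternatives other than leaving out an array were within 1.5 times the counts reported, except as follows. With a 2-fold threshold 6 members were called with NP and 11 with BPA against control day8, and 8 with NP and 10 with BPA against control day0, since the threshold itself removes smaller changes. With NP against control day8, 6 members were called without probe sets of shared design. There 32 members were tested, which left out Gstp1, Taldo1 and Txnrd1, while Gclc and Srxn1 were tested and did not pass. With only the 2 groups compared in the fit, which has fewer arrays to estimate the spread, 5 were called. With single arrays left out, the counts ranged from 5 to 15 for NP and from 15 to 23 for BPA against control day8, from 19 to 25 in control differentiation, from 15 to 17 for NP and from 15 to 20 for BPA against control day0, and from 0 to 0 for NP against BPA. The sign of a called change turned for Abcc1 with BPA (-0.17 with the second brightest probe set), for Gsto1 with BPA (-0.12 with that probe set, which also stands for it without shared designs), and for Cul3 in control differentiation (0.11 with the mean of its probe sets and 0.14 with the second brightest). The cause was not tested.

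Over 18 same-numbered pairs of arrays from different groups the deviations from group means correlated at -0.01 to 0.08, with 0 over 0.1. Over 36 other-numbered pairs they correlated at -0.11 to 0.06. Most possible partners of an array bear another number, yet 9 of 12 arrays correlated best with an array of their own number. A pairing of the arrays by replicate number was thus neither shown nor excluded. With the replicate number as a block, 11 members were called with NP and 18 with BPA against control day8, 25 in control differentiation, 16 with NP and 19 with BPA against control day0, and 0 in NP against BPA. Signals near the background level limit Gstp3, Gsta3, Gstm7, Gstt3, Mgst2 and the 4 members that were not tested.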
